A study of Mus musculus with 4 samples.

Results

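The nuclear-encoded genes of oxidative phosphorylation are described here in single basal cells of mouse back skin. The rule took every row whose symbol starts with Nduf, Uqcr, Atp5, Sdha, Sdhb, Sdhc, Sdhd, Cox4, Cox5, Cox6, Cox7 or Cox8. It found 94 rows, and the 84 with at least 10 UMIs over the kept cells are the members, of 24378 gene rows in all. A UMI (unique molecular identifier) tags 1 captured mRNA molecule, so its count does not grow with transcript length. A well was kept as a cell if it had at least 2000 UMIs on genes.

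Mitochondria pass electrons from NADH and succinate along complexes I to IV to oxygen, and complex V, the ATP synthase, uses the proton gradient that this builds to make ATP. Most subunits are encoded in the nucleus and imported, and a small number are encoded by mitochondrial DNA, so a complete complex needs products of both genomes. In the epidermis, dividing basal keratinocytes supply the cells that leave the layer. By the study's imaging, a reporter of the suprabasal keratin gene *Krt10* came on before a cell left, and some reporter-positive basal cells still divided.

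All cells came from female *Ivl-CreERT2/R26-tdTomato* mice of 57 days that had received tamoxifen (10 µg per g by the labels; the methods of the study give a higher dose) 2 days earlier. The recombinase is driven by the promoter of Involucrin (*Ivl*), a differentiation gene, so that cells in which this promoter was active when tamoxifen was given become red. Live CD49f+/LY6A+/CD34- basal cells of the interfollicular epidermis were sorted into traced (Tom+) and non-traced (Tom-) cells, each on its own Fluidigm C1 chip of 96 wells. There were 2 Tom+ and 2 Tom- libraries, 1 of each sort under each of 2 title tags. A title tag is a number that the titles of a Tom+ and a Tom- library share. No source says what it stands for. Tom+ 1 and Tom- 1 are under title tag 1, and Tom+ 2 and Tom- 2 are under title tag 2. The sorted cells came from 2 mice by the study's description, so the libraries of the sorts share animals. Whether a title tag is 1 mouse is not stated. The p-values between the sorts measure the spread between chips, which may be technical, and sort and chip cannot be told apart within a title tag.

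The kept cells were 35 and 58 in Tom+ 1 and Tom+ 2 and 20 and 48 in Tom- 1 and Tom- 2, 161 of 384 wells, with 81630 to 305407 gene UMIs per library and a median of 3225 to 4524.5 per cell. Of these cells, 160 had at least 3 of 6 basal keratinocyte markers while 9 carried 3 or more from a list for some other type (infundibulum, T cell, Langerhans or sebaceous), and none did for melanocytes, fibroblasts, endothelium or bulge. The summed level of 6 differentiation markers was 214 and 221 UMIs per 10000 in Tom+ and 61.4 and 40.2 in Tom- libraries. Transcripts of the Tomato reporter were seen in 16 of 35 and 29 of 58 Tom+ cells, and in 0 of 20 and 3 of 48 Tom- cells. *Krt10*-positive cells, with at least 6 *Krt10* UMIs after thinning each cell to 2000 UMIs, were 25 of 35 and 37 of 58 in the Tom+ libraries, but only 3 of 20 and 4 of 48 in the Tom- libraries. Any *Krt10* class value for Tom- cells therefore rests on few cells.

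Together, the 84 genes held 17258 of 728896 gene UMIs. A cell had a median of 97 and 114 member UMIs in the Tom+ libraries and of 87 and 80.5 in the Tom- libraries, spread over a median of 39 to 46 different members. The UMIs were not concentrated on a few genes, as 21 members held 50% of them and 80 of 84 were seen in every library. By complex, the subunits of complex V held 31.1% of the member UMIs, those of complex I 30.5%, complex IV 22.8%, complex III 10.2% and complex II 2.32%. This order followed the number of genes apart from complexes V and I, which were nearly equal (5366 and 5264 UMIs): complex I had 35 subunit members, complex V 15, complex IV 12, complex III 8 and complex II 4. The median level of a subunit, over all cells and in UMIs per 10000 gene UMIs, was 4.75 in complex V, 4.51 in complex IV, 2.31 in complex III, 2.07 in complex I and 1.31 in complex II.

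Complex I (NADH dehydrogenase) takes electrons from NADH. Its levels are given here and below as UMIs per 10000 gene UMIs of a library. *Ndufa6*, an accessory subunit, stood at 4.26 and 3.80 in Tom+ and at 3.80 and 3.30 in Tom- libraries. *Ndufa1* and *Ndufb9*, also accessory subunits, came next over all cells at 3.69 and 3.65. All 3 had library values within 2.82 to 4.26, and the sorts overlapped only for *Ndufb9*, with *Ndufa6* nearly equal in Tom+ 2 and Tom- 1. The 7 core subunits that carry the electron path lay lower than most accessory subunits, from *Ndufs3* at 0.576 to *Ndufv2* at 1.58, and together they had 552 UMIs against 4712 on 28 accessory subunits. One accessory subunit, *Ndufs5*, had no UMI in any library. Of the 31-base words of its annotated transcripts, 26.5% are shared with a processed pseudogene that has no row in the tables, and how reads matching both were counted is not given in the sources used here.

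Complex II (succinate dehydrogenase) links the tricarboxylic acid cycle to the chain and is wholly nuclear-encoded. Its iron-sulfur subunit *Sdhb* was at 2.23 and 1.54 in Tom+ and at 2.33 and 2.11 in Tom- libraries, and the flavoprotein *Sdha* at 1.14 and 1.57 against 1.35 and 1.30. The membrane anchor *Sdhc* was at 1.34 and 1.41 against 0.735 and 1.08, with no overlap between the sorts, and the other anchor, *Sdhd*, was the lowest of the complex at 0.960 over all cells.

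In complex III, which hands electrons to cytochrome c, the hinge protein gene *Uqcrh* was the most abundant over all cells. It stood at 4.58 and 7.69 in Tom+ and at 7.84 and 8.40 in Tom- libraries, so that library Tom+ 1 was low. *Uqcr11*, a small subunit, was at 5.21 and 6.25 against 4.66 and 3.85, the opposite order of the sorts, and exceeded *Uqcrh* in Tom+ 1. *Uqcr10*, another small subunit, overlapped between the sorts, at 2.48 and 3.57 against 3.06 and 3.85. The large core protein genes *Uqcrc1* and *Uqcrc2* were at 1.82 and 1.15 over all cells, and the Rieske iron-sulfur protein gene *Uqcrfs1* at 1.26.

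Complex IV (cytochrome c oxidase) reduces oxygen to water. *Cox7c* was the most abundant member of all, with 652 UMIs in 141 of 161 cells, at 10.2 and 9.27 in Tom+ and at 8.33 and 7.58 in Tom- libraries. *Cox4i1*, the general isoform of subunit 4, ran the other way, at 6.55 and 7.40 against 8.45 and 9.81. *Cox6b1* overlapped, at 6.29 and 6.55 against 6.86 and 4.55. At the low end, *Cox5a* and *Cox5b* were at 1.74 and 1.00 over all cells.

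Several complex IV subunits exist as general and tissue-restricted isoforms, and nearly all UMIs fell on the general ones. *Cox4i2*, *Cox6a2*, *Cox7a1*, *Cox8b* and *Cox8c* had no UMI in any library. For *Cox4i2*, 0 of 579 UMIs of the pair with *Cox4i1* allows a share of up to 0.518%, and for *Cox7a1*, the heart and muscle isoform, 0 of 426 UMIs with *Cox7a2* allows up to 0.704%. The limits were 1.19% for *Cox6a2* and 0.940% each for *Cox8b* and *Cox8c*, for counting error only. *Cox6b2*, known from testis, had 9 of 448 UMIs of its pair and *Cox7b2* 1 of 282, both below the minimum for a member. *Ndufa4l2* was the exception. This relative of the complex IV subunit *Ndufa4*, known to be induced by low oxygen, made up 21.5% and 13.5% of the UMIs of the pair in Tom+ and 27.5% and 18.4% in Tom- libraries. Its 73 UMIs came from 38 of 161 cells, and their source was not tested. In *Krt10*-positive cells it had 11, 23, 5 and 2 UMIs in Tom+ 1, Tom+ 2, Tom- 1 and Tom- 2, and in negative cells 9, 3, 6 and 14.

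Complex V subunits had the highest median level of the 5 complexes. The catalytic beta subunit *Atp5b* was at 9.66 and 7.27 in Tom+ and at 8.94 and 8.24 in Tom- libraries. *Atp5l* (subunit g) ranged more widely, from 4.83 to 8.19, both of them Tom+ libraries. Of its 31-base words, 54.3% occur in a processed pseudogene, the only member above 50%, so that its level is uncertain. *Atp5j2* (subunit f) stood between 6.25 and 6.61 in all 4 libraries. The c subunit, which forms the rotor ring, is encoded by 3 genes with the same mature protein. *Atp5g2* held 41.0%, *Atp5g3* 40.1% and *Atp5g1* 18.9% of their 930 UMIs. The share of *Atp5g1* was 24.3% and 19.3% in Tom+ and 16.3% and 14.6% in Tom- libraries.

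The 8 assembly factors that passed the minimum, which help to build complexes I and II and are not part of them, had 178 UMIs in all, from *Ndufaf1* with 10 to *Sdhaf2* with 37. All 14 UMIs of *Atp5sl*, an assembly factor of complex I despite its symbol, came from Tom+ libraries, at 0.445 and 0.229. Its count of 0 in the Tom- libraries allows a level of up to 0.368 in Tom- 1 and 0.163 in Tom- 2 (3 UMIs). Both limits lie below the Tom+ value of the same title tag, but those values rest on 7 UMIs each, in 6 and 4 cells. They have counting error of their own, so no difference was shown. With so few UMIs the gene did not pass the filter of the test below. Ordered by level, all 83 neighbouring pairs of members overlapped in their library ranges, so the order is firm only between genes far apart in it. The plot of levels by library shows every member.

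**Figure D1:**
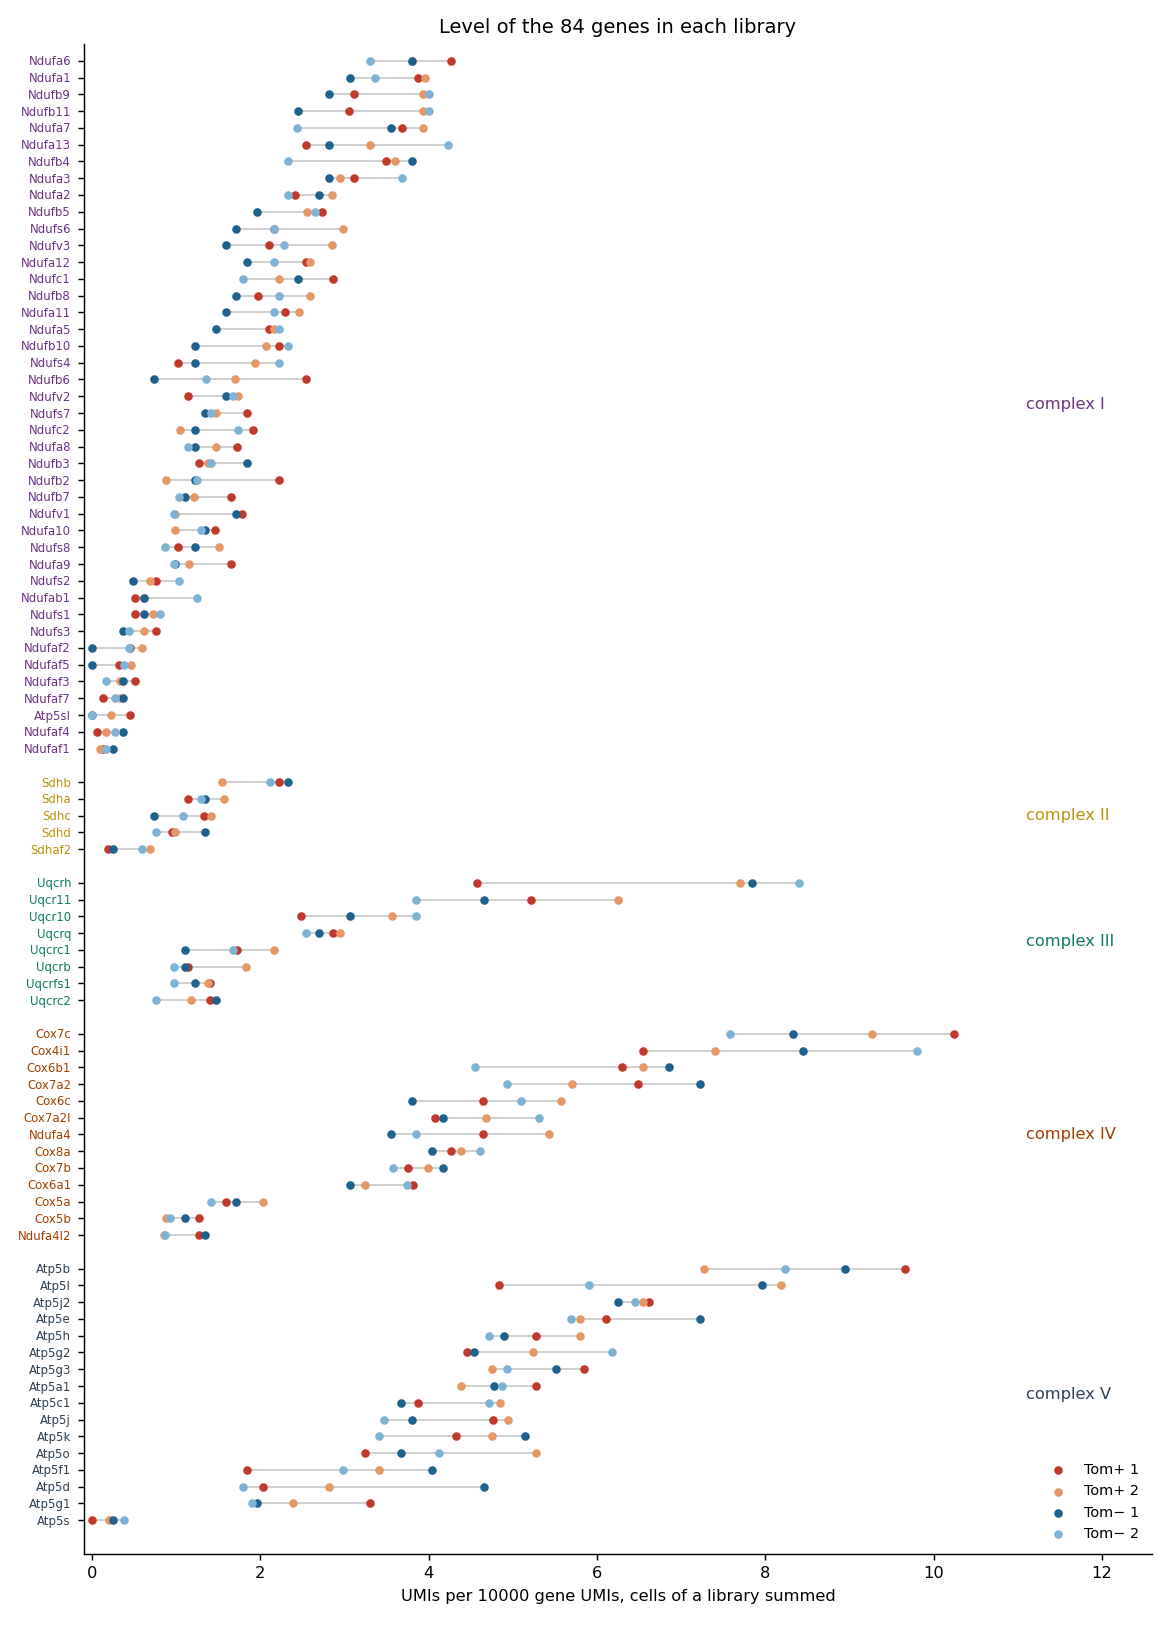
Level of each of the 84 genes (x axis, UMIs per 10000 gene UMIs, summed over the cells of a library) by complex, with 1 point per library and a grey line over their range. The highest levels belong to complex III, IV and V members, no complex I or II member passes 4.26 in any library, and *Cox7c* reaches 10.2 in Tom+ 1.

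Promoter sequence was not used by the rule. RefSeq promoter windows of 250 bases before to 50 after the transcript start (build GRCm38.p6) were matched to 72 of the 84 members, 3 of them by an older symbol. They were searched on both strands for the motifs of NRF1 (CGCATGCG), ETS factors (CCGGAAG) and YY1 (AANATGGC), all known from promoters of respiratory genes. NRF1 motifs were in 14.1% of the 78 member windows and in 1.87% of all 32851 windows. ETS motifs were in 23.1% against 8.86%, and YY1 motifs in 26.9% against 6.05%. Windows of the genes that could be tested between the sorts held them in 4.38%, 18.9% and 9.68%. By gene, 41 of 72 members (56.9%) had at least 1 of the motifs, against 34.7% of the genes tested between the sorts and 17.3% of all genes. For the ETS motif alone, 18 of 72 members stood close to the share of 22.5% among the tested genes. All 3 kinds were in 1 member and 31 had none. The YY1 motif was in 14 of 38 complex I members and the ETS motif in 5, while the ETS motif was in 3 of 4 complex II members. A match is a description of these letters and not of bound protein.

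The windows below show such matches, from 100 bases before to 25 after the start. They are those of the most abundant member of each complex with a match in this stretch and of the most abundant member with an NRF1 motif. Capitals mark the motif: YY1 in *Ndufa7* and *Atp5b*, ETS in *Sdhb*, *Uqcrh* and *Cox6b1*, and ETS then NRF1 in *Uqcr11*.
Ndufa7 (chr17:33824545-33824669, plus strand): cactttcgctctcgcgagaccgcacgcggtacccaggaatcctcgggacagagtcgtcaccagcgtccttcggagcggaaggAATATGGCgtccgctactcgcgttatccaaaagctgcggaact
Sdhb (chr4:140961171-140961295, plus strand): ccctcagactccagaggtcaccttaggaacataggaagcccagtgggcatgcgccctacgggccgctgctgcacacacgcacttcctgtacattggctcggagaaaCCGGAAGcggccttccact
Uqcrh (chr4:116075046-116075170, minus strand): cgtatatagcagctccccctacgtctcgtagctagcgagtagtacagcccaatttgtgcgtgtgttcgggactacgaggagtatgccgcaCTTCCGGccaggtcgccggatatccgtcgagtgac
Cox6b1 (chr7:30626090-30626214, minus strand): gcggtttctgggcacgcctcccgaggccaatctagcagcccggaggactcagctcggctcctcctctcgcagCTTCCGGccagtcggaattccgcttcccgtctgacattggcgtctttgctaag
Atp5b (chr10:128083207-128083331, plus strand): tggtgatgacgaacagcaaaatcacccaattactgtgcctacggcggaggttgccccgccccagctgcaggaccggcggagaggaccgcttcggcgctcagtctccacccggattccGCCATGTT
Uqcr11 (chr10:80406797-80406921, minus strand): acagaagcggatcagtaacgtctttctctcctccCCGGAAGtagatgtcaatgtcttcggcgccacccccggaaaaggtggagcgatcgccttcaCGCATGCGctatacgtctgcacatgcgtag
The NRF1 motif reads the same on both strands, and no 2 of the printed motifs overlap otherwise.

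The first comparison asks whether the gene set differs between traced and non-traced basal cells. It took nearly the same share of the mRNA in both. The mean share per cell was 2.22% ± 0.779 (SD over 35 cells) in Tom+ 1 and 2.39% ± 0.638 (58 cells) in Tom+ 2. It was 2.19% ± 0.569 (20 cells) in Tom- 1 and 2.20% ± 0.829 (48 cells) in Tom- 2. The Tom+ libraries lay above the Tom- libraries without overlap, but by only 0.113 percentage points (2.31% ± 0.122 against 2.19% ± 0.00839, SD, n = 2 each), a ratio of 1.05. The difference was 0.0326 percentage points under title tag 1 and 0.194 under title tag 2, small beside the spread between cells. Leaving out Tom+ 2 left 0.0266, whereas leaving out Tom+ 1 gave 0.199. Median depth per cell moved with it (4047 and 4524.5 UMIs in Tom+, 3877 and 3225 in Tom-), as did gene UMIs per spike-in UMI (48.0 and 49.2 against 39.4 and 29.6). With every cell thinned to 2000 UMIs the difference was 0.153. Thinning leaves the expected share of a cell unchanged, so this value cannot tell depth from sort. Without the 9 cells carrying other markers the difference was 0.130.

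By complex, the subunits of complex I took 0.702% and 0.731% in Tom+ and 0.590% and 0.681% in Tom- libraries. The ratio was 1.13, and Tom+ was higher under both title tags and without overlap. The difference of 0.0814 percentage points was 0.0360 without Tom- 1 and 0.127 without Tom- 2. Complex IV was at 0.528% in both Tom+ libraries against 0.504% and 0.494%. Complexes II, III and V overlapped between the sorts, with ratios of 1.04, 1.01 and 0.995. The plot of shares by complex shows how small these differences were beside the spread over cells.

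**Figure D2:**
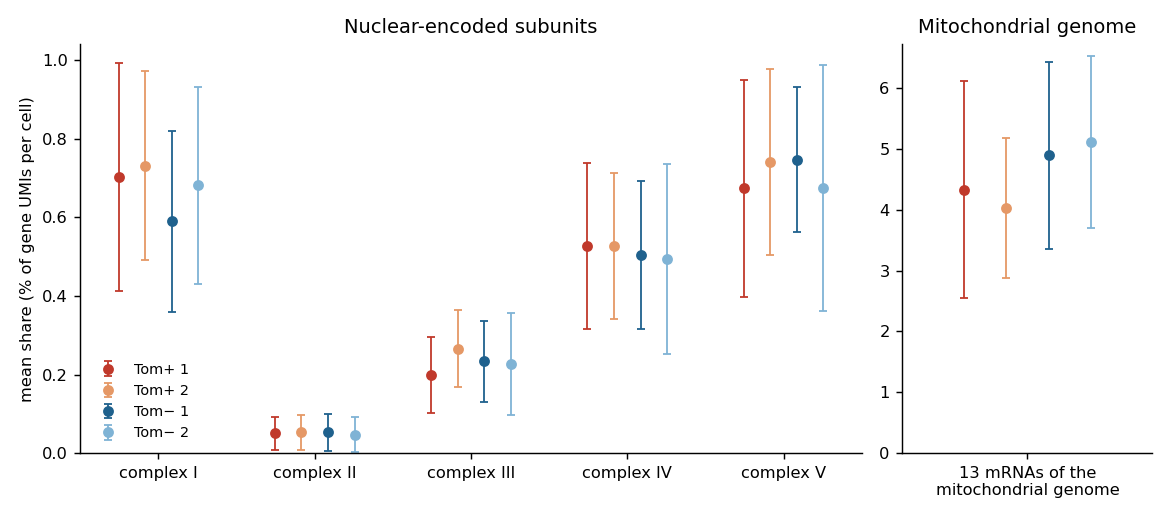
Mean share of gene UMIs per cell (%, bars are the SD over cells) in each library, for the nuclear-encoded subunits of complexes I to V on the left and the 13 mRNAs of the mitochondrial genome on the right. Complex I is at 0.702% and 0.731% in Tom+ and 0.590% and 0.681% in Tom- libraries, while the mitochondrial mRNAs are lower in both Tom+ libraries.

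Gene by gene, no member was called between the sorts. UMIs were summed per library and tested with the quasi-likelihood test of edgeR over 3070 genes, of which 76 were members. None of the 76 had a Benjamini-Hochberg adjusted p under 0.05, where 1.24% of all genes tested did (38 genes, 0.847% higher and 0.391% lower). With the title tag as a block, 116 genes were called, again with 0 of 76 members. None had an unadjusted p under 0.05 either, against 9.84% of all genes, and DESeq2 and limma-voom also called no member. The median log2 fold change of the members was 0.076 and that of all genes tested -0.0061. Members were above 0 in 45 of 76 cases, among them 24 of 35 complex I and 6 of 8 complex III subunits but 7 of 15 complex V subunits. The library levels of 23 of 76 members (30.3%) were higher in both Tom+ libraries than in both Tom- libraries, where 20.8% of all genes tested were, and those of 3 (3.95%) were lower in both, where 18.0% were. These 3 were *Cox4i1*, *Uqcrh* and *Ndufb3*.

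The members with the largest fitted values were a complex I pair, *Ndufb6* and *Ndufs3*, and the complex III subunit *Uqcrb*. *Ndufb6*, an accessory subunit, stood at 2.54 and 1.70 UMIs per 10000 in Tom+ and at 0.735 and 1.35 in Tom- libraries. Its log2 fold change was 0.83 ± 0.42 (SE), with an edgeR adjusted p of 0.555. *Ndufs3*, a core subunit, was at 0.763 and 0.622 against 0.368 and 0.433, a log2 fold change of 0.68 ± 0.67 (adjusted p = 0.891 by edgeR). *Uqcrb* was at 1.14 and 1.83 against 1.10 and 0.975, a log2 fold change of 0.54 ± 0.44 (adjusted p = 0.826 by edgeR). In these 3 genes the Tom+ libraries were the higher ones without overlap, yet no difference exceeded the spread in the fit.

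At the other end stood *Ndufab1*, the acyl carrier protein of complex I, at 0.509 and 0.622 in Tom+ and 0.613 and 1.25 in Tom- libraries. Its log2 fold change was -0.84 ± 0.53 (adjusted p = 0.707 by edgeR), and the sorts overlapped. *Cox4i1* had -0.43 ± 0.27 (adjusted p = 0.693 by edgeR) and *Uqcrh* -0.42 ± 0.30 (adjusted p = 0.764 by edgeR), both from the levels given above. The 95% interval of the log2 fold change lay within 1 unit of 0 for 35 of 76 members, mostly abundant ones. For the other members, a change of 1 unit in at least 1 direction was not excluded at this depth.

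**Figure D3:**
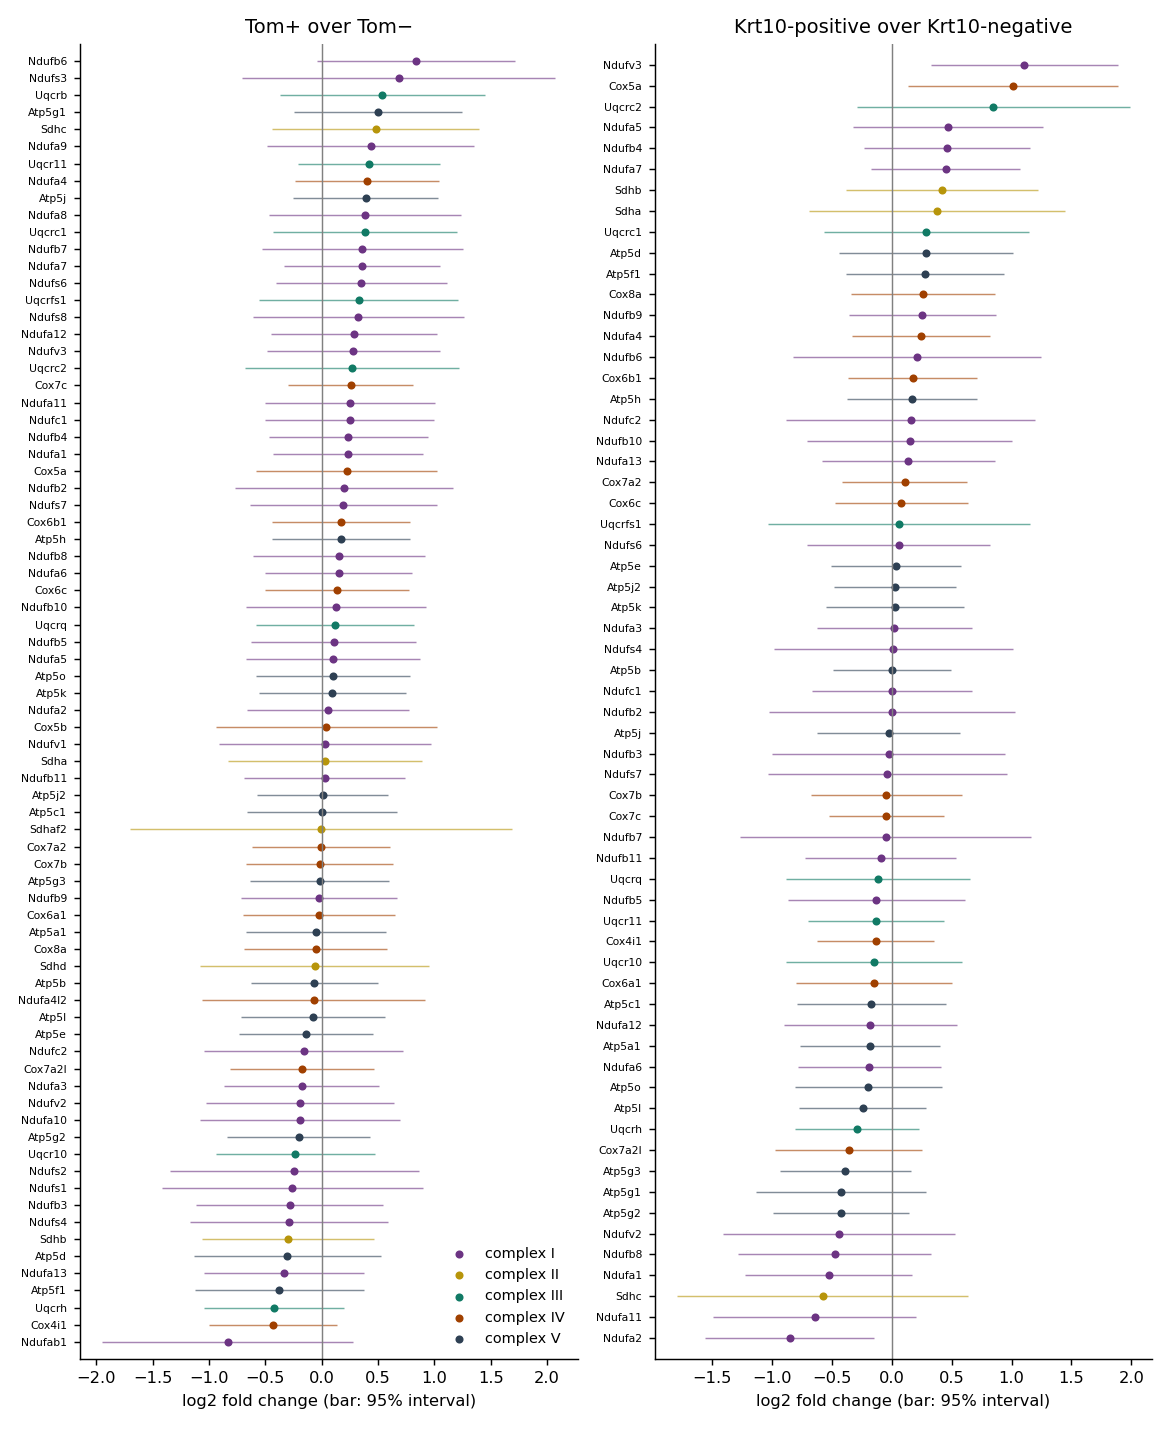
Log2 fold change (x axis) of each tested member with its 95% interval, from edgeR, coloured by complex: Tom+ over Tom- on the left (76 members) and *Krt10*-positive over *Krt10*-negative on the right (62 members). Nearly all intervals cross 0, from -0.84 for *Ndufab1* to 0.83 for *Ndufb6* on the left and from -0.86 for *Ndufa2* to 1.11 for *Ndufv3* on the right.

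Genes of the same organelle outside the set give a scale. The 13 mRNAs of the mitochondrial genome took 4.33% and 4.03% per cell in Tom+ and 4.89% and 5.11% in Tom- libraries. They were lower in Tom+ under both title tags and without overlap, with a difference of the means of -0.823 percentage points. Their fitted log2 fold changes lay below 0 for 12 of 13, with a median log2 fold change of -0.23. None was called, and the lowest was *mt-Atp8*, a complex V subunit, at -0.72 ± 0.21 (adjusted p = 0.131 by edgeR). The nuclear complex I genes and the mitochondrial mRNAs thus lay on opposite sides under both title tags. The mitochondrial ribosome genes, 33 tested, had a median of 0.15 and the import genes, 13 tested, of 0.23. Tricarboxylic acid cycle genes, 16 tested, had a median of -0.13 and glycolysis genes, 13 tested, of -0.11. Respiratory genes outside the prefixes, 6 tested, had a median of 0.058, and 1 regulator could be tested, with none called in any of these lists.

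Among the 8 lists of other mitochondrial and energy genes, 1 gene passed the test, *Prdx5*, a peroxiredoxin that removes peroxides in mitochondria and peroxisomes. It stood at 5.72 and 8.25 UMIs per 10000 in Tom+ and at 1.35 and 2.60 in Tom- libraries, a log2 fold change of 1.70 ± 0.36 (SE, adjusted p = 0.0156 by edgeR). Without Tom- 1 the adjusted p of *Prdx5* was 0.0513 by edgeR and without Tom+ 2 it was 0.123.

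The second comparison asks whether the set differs between basal cells with and without *Krt10*, that is, along early differentiation. At the main settings, the share did not move in a common direction over the libraries. *Krt10*-positive and negative cells had means of 2.11% and 2.50% in Tom+ 1, 2.41% and 2.37% in Tom+ 2, 2.22% and 2.18% in Tom- 1 and 2.40% and 2.18% in Tom- 2. Positive minus negative was -0.394, 0.0314, 0.0319 and 0.214 percentage points, with a mean of -0.0293 ± 0.258 (SD, 4 libraries). Median depth of positive and negative cells was 3925 and 4425.5 UMIs in Tom+ 1 and 5077 and 3972 in Tom+ 2. It was 4142 and 3513 in Tom- 1 and 3375.5 and 3225 in Tom- 2. Depth thus differed in the same direction as the share in each library, and its part was not tested. Over 20 other draws of the thinning that sets the classes, the mean averaged -0.118 and ran from -0.280 to 0.0511. It was -0.214 and -0.274 with a minimum of 1000 and 5000 UMIs per cell. With positive cells from 1 and from 10 thinned UMIs it was -0.321 and -0.202. Without the 5% of cells with the most UMIs it was -0.172. It was above 0 with UMIs pooled over cells (0.0317) and without Tom+ 1 (0.0923). In the main draw, no complex differed by more than its spread over libraries, the largest mean difference being -0.0551 ± 0.0953 percentage points for complex V. Over the 20 other draws the mean ran from -0.129 to -0.0394 for complex V and from -0.0492 to -0.0071 for complex III. For complex II it ran from 0.0085 to 0.0244, and for complexes I and IV it crossed 0.

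In 3 *Krt10* classes, cells without a *Krt10* UMI were at 2.70% ± 0.690 (SD, 4 cells) in Tom+ 1 and 3.24% ± 0.118 (2 cells) in Tom+ 2, but at 2.26% ± 0.409 (8 cells) in Tom- 1 and 2.15% ± 0.925 (37 cells) in Tom- 2. Cells with 1 to 5 UMIs were at 2.37%, 2.28%, 2.12% and 2.38%. The high values of the *Krt10*-free Tom+ cells rest on 6 cells. Among *Krt10*-negative cells of fewer than 6 UMIs, Tom+ exceeded Tom- by 0.255 percentage points, and among positive cells the difference was -0.0489.

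**Figure D4:**
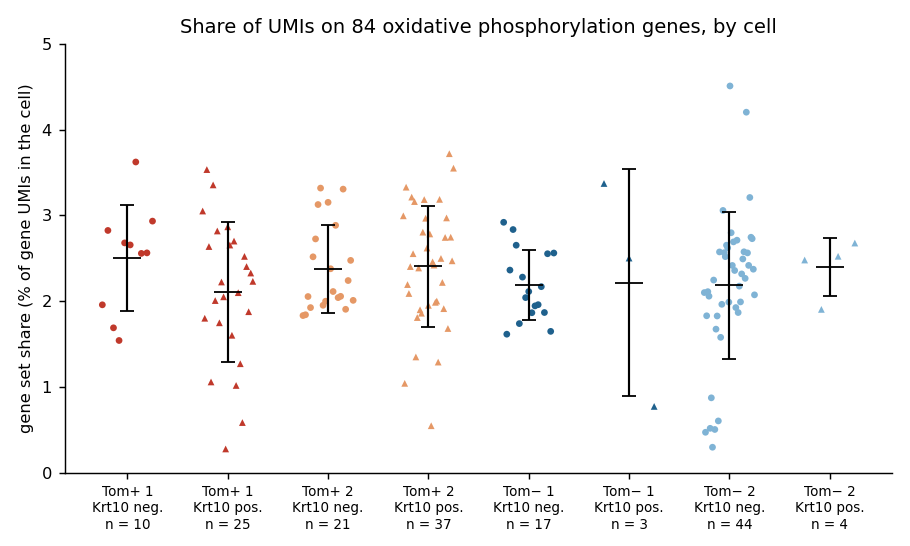
Share of gene UMIs on the 84 genes (%, y axis) in each cell, by library and *Krt10* class (circles negative, triangles positive), with the mean and SD over cells. The class means lie between 2.11% and 2.50%, and the cells below 1% number 6 in Tom- 2, 2 in Tom+ 1 and 1 in each of the other libraries.

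Again no single member passed the test. Sums per library and class were fitted in edgeR with the library as a block over 1179 genes, 62 of them members. Both classes of a library came from the same chip, so these p-values measure how far the class difference varied between libraries. The positive sums of Tom- 1 and Tom- 2 came from 3 and 4 cells. No member was called where 8.91% of all genes tested were (105 genes, 4.66% higher and 4.24% lower), and 3 of 62 (4.84%) had an unadjusted p under 0.05 where 18.2% of all genes did. DESeq2 called none, and limma-voom called 2, *Ndufv3* and *Ndufa2*. The median log2 fold change was 0.0011, with 31 of 62 above 0, against -0.015 for all genes tested. With DESeq2 size factors the median was -0.037, with 25 of 62 above 0. Only 9 of 62 members (14.5%) lay the same way in all 4 libraries, where 28.1% of all genes tested did.

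*Ndufv3*, a complex I accessory subunit, had the largest value. In positive and negative cells it stood at 2.21 and 1.91 UMIs per 10000 in Tom+ 1, 3.69 and 0.972 in Tom+ 2, 2.39 and 1.39 in Tom- 1, and 5.08 and 2.02 in Tom- 2. It was higher in positive cells in 4 of 4 libraries, with a log2 fold change of 1.11 ± 0.38 (adjusted p = 0.0721 by edgeR, 0.0206 by limma-voom). *Cox5a* was also higher in 4 of 4, at 1.92 and 0.955, 2.22 and 1.62, 3.59 and 1.24, and 3.81 and 1.19 in the same order, a log2 fold change of 1.01 ± 0.42 (adjusted p = 0.168 by edgeR). *Uqcrc2*, a core protein of complex III, had 0.85 ± 0.55 (adjusted p = 0.481 by edgeR) and was higher in 3 of 4.

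*Ndufa2*, a complex I accessory subunit, was the lowest at -0.86 ± 0.34 (adjusted p = 0.149 by edgeR, 0.0386 by limma-voom). Its levels in positive and negative cells were 1.83 and 3.63, 2.13 and 4.54, 2.99 and 2.62, and 1.27 and 2.43, lower in 3 of 4 libraries. *Ndufa11* had -0.65 ± 0.41 (adjusted p = 0.471 by edgeR) and *Sdhc* -0.58 ± 0.59 (adjusted p = 0.714 by edgeR), the latter with no UMI in the positive cells of either Tom- library. Whether the class difference itself differed between the sorts was tested as an interaction. It called 0 of 62 members where 0.17% of 1179 genes were called, and 2 members, *Sdha* and *Sdhc*, had an unadjusted p under 0.05, where 4.33% of all genes did.

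*Prdx5* was higher in *Krt10*-positive cells in 4 of 4 libraries, at 7.21 against 2.87, 10.6 against 2.92, 3.59 against 0.772 and 6.98 against 2.19, with a log2 fold change of 1.67 ± 0.29 (adjusted p = 0.00030 by edgeR). The mitochondrial mRNAs had a median of -0.0047 over 12 genes tested, and none was called. Glycolysis genes took a lower share in positive cells in 4 of 4 libraries, with a mean difference of -0.0561 ± 0.0446 percentage points (SD, 4 libraries), and none of the 9 tested was called.

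Cells differed far more among themselves than the groups did. Given the depth of each cell, the variance of member UMIs was 9.01, 7.36, 7.08 and 8.78 times that of counting alone in Tom+ 1, Tom+ 2, Tom- 1 and Tom- 2. Counting noise would give a coefficient of variation of 8.77% to 10.7% at the mean depth, and the spread beyond it was 22.1% to 29.9%. The beyond-counting spread of complex I alone was 24.7% to 32.8%, and that of complex IV 25.8% to 33.8%. For complex V it was 16.8% to 33.9%, for complex III 20.9% to 38.0% and for complex II 34.7% to 45.1%. In each library the set lay between the lowest and the highest complex.

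From cell to cell, complexes I, III, IV and V correlated positively with each other in every library, and complex II did so only with complex III. On thinned counts, complex I correlated with complex IV at Pearson r = 0.769, 0.425, 0.233 and 0.545 in Tom+ 1, Tom+ 2, Tom- 1 and Tom- 2 (35, 58, 20 and 48 cells), and with complex V at 0.287 to 0.583, while complexes IV and V correlated at 0.154 to 0.595. Complex III correlated with complex I at 0.101 to 0.420, with complex V at 0.254 to 0.441 and with complex IV at 0.0024 to 0.416, the lowest value being that of Tom- 1. Complex II, with few UMIs, correlated with complex I at -0.0895 to 0.273, with complex III at 0.101 to 0.456, with complex IV at -0.051 to 0.326 and with complex V at -0.094 to 0.609. Taken singly, 79 of 84 members had a positive mean correlation with the rest of the set, 50 of them in every library. Among the 59 with at least 100 UMIs, 44 were positive in every library. *Cox6b1* had the highest mean r, 0.457, and *Cox5b* the lowest, -0.118. The cells of a library share its depth and its RNA quality, so these values are descriptions.

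The same cells give a measure of what else moved. Over all cells, the share of the set correlated with that of cytosolic ribosomal protein genes at r = 0.532 to 0.819, and with that of mitochondrial ribosome genes at 0.512 to 0.642. With the mitochondrial mRNAs it correlated negatively in 4 of 4 libraries, at -0.587 to -0.165. In the cells at or above the median depth of their library the last relation was negative in only 2 of 4 (-0.432 to 0.196), whereas the ribosomal protein (0.334 to 0.783) and mitochondrial ribosome relations (0.486 to 0.592) remained positive in 4 of 4. The list of cytosolic ribosomal proteins was added after the data had been seen.

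Depth moved with the share. With the cells of each library split into 3 classes of nearly equal size by UMIs, from shallowest to deepest, the mean share was 1.77%, 2.41% and 2.51% in Tom+ 1, 2.13%, 2.46% and 2.61% in Tom+ 2, 2.02%, 2.18% and 2.40% in Tom- 1, and 1.91%, 2.31% and 2.38% in Tom- 2. The rise from the shallowest to the deepest class exceeded the difference between the sorts in every library, and its part in the comparisons was not tested. Cells with less than 1% numbered 2 of 35, 1 of 58, 1 of 20 and 6 of 48. The 2 lowest held 6 member UMIs each, at 0.276% of 2170 and 0.296% of 2024 gene UMIs, with 7.05% and 9.83% of their UMIs on mitochondrially encoded rows. The highest cell, in Tom- 2, was at 4.51% of 3370 UMIs.

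**Figure D5:**
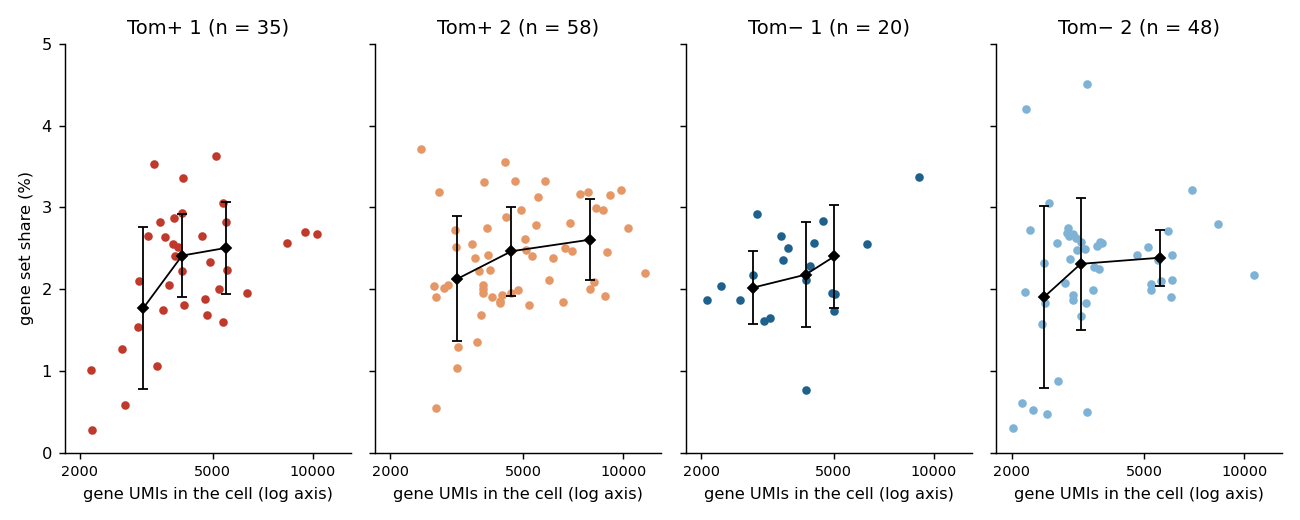
Share of the 84 genes (%, y axis) against the gene UMIs of the cell (log axis), 1 panel per library, with diamonds for the mean and SD of each of 3 classes of cells by depth. The mean of the shallowest class is the lowest in every panel, and the cells under 1% lie mostly among shallow cells.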

How the data were processed

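Single cells of 4 C1 chips were sequenced with UMIs. Per the labels, reads were processed against mouse build GRCm38 (mm10), and the aligner is not given in the sources used here. The authors deposited raw UMI counts, whole numbers for each gene in each well. Spike-in and reporter rows (1.79% to 2.73% of the UMIs of a library) were left out of totals. A median of 3225 to 4524.5 gene UMIs per cell sets the precision. Members and lists were chosen with earlier results of these data known.

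Shares are means over cells of each cell's percentage, without a test. UMI counts were summed per library, or per library and *Krt10* class, and tested in R 4.3.3 with edgeR 4.0.16 (quasi-likelihood test after filterByExpr and TMM scaling, with p-values adjusted by Benjamini-Hochberg across all tested genes, threshold 0.05). The common biological coefficient of variation between libraries was 0.224. Summed counts of libraries of the same sort differed by more than sampling noise (chi-square per degree of freedom of 2.91 for Tom+ and 2.43 for Tom-), so none was taken as a repeat.

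Named members were, by rule, those past the threshold, the 3 with the most UMIs in each complex, the 3 highest and 3 lowest log2 fold changes of each fit, the isoform families and the assembly factors. Others were named after their values were seen, to give the low end of a complex or an extreme. Shared sequence was counted in 31-base words of GENCODE vM21 transcripts. Alternatives used DESeq2 1.42.0, limma 3.58.1, other depth minimums, thinned counts, other *Krt10* cut-offs and each library left out. Limits at a count of 0 cover counting error only.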

Additional observations from a re-analysis of the deposited data

Results flagged for a closer look

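The share on complex II differed in direction between the sorts. The class differences of the set and of each complex, 6 in all, were searched for this pattern, and only complex II had it. No test allowed for that search. *Krt10*-positive minus *Krt10*-negative cells gave -0.0139 and -0.0018 percentage points in Tom+ 1 and Tom+ 2, and 0.0302 and 0.0322 in Tom- 1 and Tom- 2, so that both Tom+ libraries lay below 0 and both Tom- libraries above it. The mean difference of the differences was -0.0390 percentage points. This difference was not tested on the share, and it rests on 401 UMIs and on 3 and 4 positive cells in the Tom- libraries. The interaction fitted per gene called none of the 3 complex II genes tested, although *Sdha* and *Sdhc* had an unadjusted p of 0.0361 and 0.0495 (adjusted p = 0.932 by edgeR for both). The fitted interactions of these 2 genes had opposite signs: *Sdhc*, with no UMI in *Krt10*-positive Tom- cells and 0.926 and 1.19 UMIs per 10000 in negative ones, ran against the direction of the share.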

How the results depend on the processing

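Of the 95 alternative values of the main counts and shares, 83 stayed within the spread or within 1.5 times. That tally takes in the counts of members called, which stayed at 0 in nearly all settings. It also lets a share difference change sign within its spread. Between the *Krt10* classes, the share difference of -0.0293 was 0.0923 without Tom+ 1 and -0.110 without Tom- 2, both taken as within the spread. No member was called between the sorts under any alternative, and between the *Krt10* classes only limma-voom called any (2). For all genes, the sorts gave 38 calls, but 8 when cells needed 5000 UMIs (7 higher, 1 lower). They gave 27 to 65 calls with 1 library left out (65 without Tom- 1). With the title tag as a replicate block they gave 116 calls (63 higher, 53 lower). The libraries came from 2 mice, but whether the tags pair them by mouse is not stated. Deviations of same-numbered libraries correlated at 0.133 over genes, from 2 pairs. The *Krt10* classes gave 105 calls, 19 with positive cells from 1 thinned UMI, 51 and 28 with a minimum of 1000 and 5000 UMIs, 48 on thinned counts, 49 in the Tom+ libraries alone, 58 to 128 with 1 library left out (58 without Tom+ 1), and 102 with no replicate block for the library. Fewer genes could be tested with a minimum of 5000 UMIs, and for the *Krt10* classes also on thinned counts (498), with positive cells from 1 thinned UMI (790) and without Tom+ 2 (928, against 1179). The cause of the other changes was not tested. The share of the set differed between the sorts by 0.113 percentage points and by 0.223 with a minimum of 1000 UMIs, and between the *Krt10* classes by -0.0293 and by -0.321 with positive cells from 1 thinned UMI. Of 169 alternative values of the members named for their log2 fold change, 168 kept their direction; *Uqcrc2* had -0.0036 between the *Krt10* classes with a minimum of 1000 UMIs. *Prdx5* kept its direction in 32 of 32 alternatives and passed the threshold in 25. Where a library is left out of the comparison of sorts, the lone library of that sort is assumed to vary like the other group.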
